A study of Mus musculus with 12 samples.

Results

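The genes described are 10 listed as identity genes of liver sinusoidal endothelium, out of 49585 gene IDs in the liver tables, chosen by symbol: Kdr, Flt1, Tek, Tie1, Clec14a, Clec4g, Stab1, Stab2, Lyve1 and Sox17. Being listed does not mean that a gene is limited to these cells. The list was drawn up with the liver comparison of these same libraries already known, so the liver values of the 10 genes are a description and carry no test. Poly(A) RNA of C57BL/6 mice was sequenced in 12 libraries, 3 in each of 4 groups. The liver groups were liver given LPS (bacterial lipopolysaccharide) for 2 h and untreated liver, whose samples are titled WT. Peritoneal macrophages made up the remaining groups: they carried a lentiviral hairpin for 72 h before 2 h of LPS, aimed at Gm26917, a long non-coding RNA (shGm26917), or at nothing (shNC, the negative control). All macrophage libraries thus carry both a lentivirus and LPS. The labels do not say whether the 3 libraries of a group came from separate animals or cultures, nor the animals' age or the dose and route of LPS, so p-values measure the spread between these libraries, which may be technical.

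Sinusoidal endothelial cells line the blood channels between hepatocyte plates. They are perforated by open pores, lack a continuous basement membrane and clear waste macromolecules from blood through scavenger and lectin receptors. Kdr and Flt1 are receptors for vascular endothelial growth factors (VEGF): Kdr carries most of the growth and survival signal, while Flt1 binds VEGF-A tightly and signals weakly, and also exists as a soluble form that traps the ligand. Tek (TIE2) is the receptor of the angiopoietins and Tie1 its orphan partner. Stab1, Stab2 and Lyve1 bind or take up extracellular ligands, hyaluronan among them, and Sox17 is a transcription factor of the SOXF group that acts in endothelial development.

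Liver libraries held 17322770 to 20913964 counts and macrophage libraries 15605311 to 18062853. All 10 genes passed the filter on low counts in liver, and all 10 had counts in each untreated library. Markers of sinusoidal cells other than these (Fcgr2b, Oit3, Gpr182 and Dnase1l3) were counted in all 6 liver libraries as well. The annotated exons of Kdr, Flt1, Tek, Tie1, Clec14a and Lyve1 overlapped no other annotated gene. Those of Clec4g, Stab1, Stab2 and Sox17 shared 146, 112, 141 and 804 bases with a gene on the opposite strand, and the sources used here do not say whether counting used strand. In whole liver, fewer cells of a type and less RNA per cell cannot be told apart.

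Upstream sequence is shown for 3 of the genes, because Kdr and Flt1 are paired receptors whose levels differed from untreated liver in opposite directions and Clec14a had the lowest level after LPS. Each line gives the 250 bases before the start in the RefSeq table (GRCm38.p6), 5′ to 3′ on the minus strand, which is the coding strand of all 3 genes. Capitals mark AGGAAG, a core recognised by ETS factors, or its reverse complement CTTCCT. The windows are chr5:75978456-75978705 for Kdr, chr5:147726012-147726261 for Flt1 and chr12:58269259-58269508 for Clec14a.
Kdr: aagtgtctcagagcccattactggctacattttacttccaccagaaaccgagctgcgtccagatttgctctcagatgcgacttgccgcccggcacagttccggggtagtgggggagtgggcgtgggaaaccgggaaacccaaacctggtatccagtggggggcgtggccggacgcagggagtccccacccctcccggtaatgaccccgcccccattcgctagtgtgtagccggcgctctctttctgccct
Flt1: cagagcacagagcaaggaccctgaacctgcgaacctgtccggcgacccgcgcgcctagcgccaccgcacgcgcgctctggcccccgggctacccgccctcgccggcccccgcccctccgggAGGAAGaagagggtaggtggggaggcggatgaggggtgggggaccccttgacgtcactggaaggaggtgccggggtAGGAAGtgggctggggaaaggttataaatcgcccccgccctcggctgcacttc
Clec14a: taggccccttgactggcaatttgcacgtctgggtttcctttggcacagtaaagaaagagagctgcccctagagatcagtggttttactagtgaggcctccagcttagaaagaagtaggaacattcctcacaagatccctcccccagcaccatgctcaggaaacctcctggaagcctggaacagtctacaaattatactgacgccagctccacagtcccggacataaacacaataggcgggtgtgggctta
AGGAAG stood at 2 places upstream of Flt1 and nowhere in the Kdr and Clec14a windows. The table held 8 of the 10 genes, and 5 of those 8 had the motif on either strand (Tie1, Flt1, Clec4g, Stab2 and Stab1), against 29.5% of all 32851 windows. AACAAT, a SOX core, stood in 1 of the 8 windows, that of Tek, against 9.42% of all windows, and AGATAA, recognised by GATA factors, in 0 of the 8 against 9.99%, both strands searched. These motifs do not overlap each other, and a match is only a run of letters. Guanine and cytosine made up 70.4% of the Flt1 window, 61.6% of the Kdr window and 50.8% of the Clec14a window, against a median of 52.4% over all windows.

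In liver 2 h after LPS, the 10 genes did not move as a block. Levels are CPM, the usual per-library share of counts, on library sizes scaled by the trimmed mean of M values (TMM), and log2 fold changes are LPS minus untreated from edgeR with their standard error (SE). Under the genome-wide threshold of an adjusted p of 0.05, 5 genes stood lower after LPS (Kdr, Tek, Clec14a, Clec4g and Sox17), 3 stood higher (Flt1, Stab2 and Lyve1) and 2 were on neither side (Tie1 and Stab1). Of all 13869 genes tested, 45.3% were called, 23.3% higher and 22.1% lower, and since the genes were chosen with this contrast known their count is not evidence about them. The LPS and untreated values did not overlap for 8 of the 10, against 57.8% of all tested genes. The median log2 fold change of the 10 was -0.74, beside -0.06 over all tested genes. Their summed level was 187, 165 and 160 CPM in the LPS libraries and 216, 138 and 202 CPM in the untreated libraries, so the sums overlapped.

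**Figure D1:**
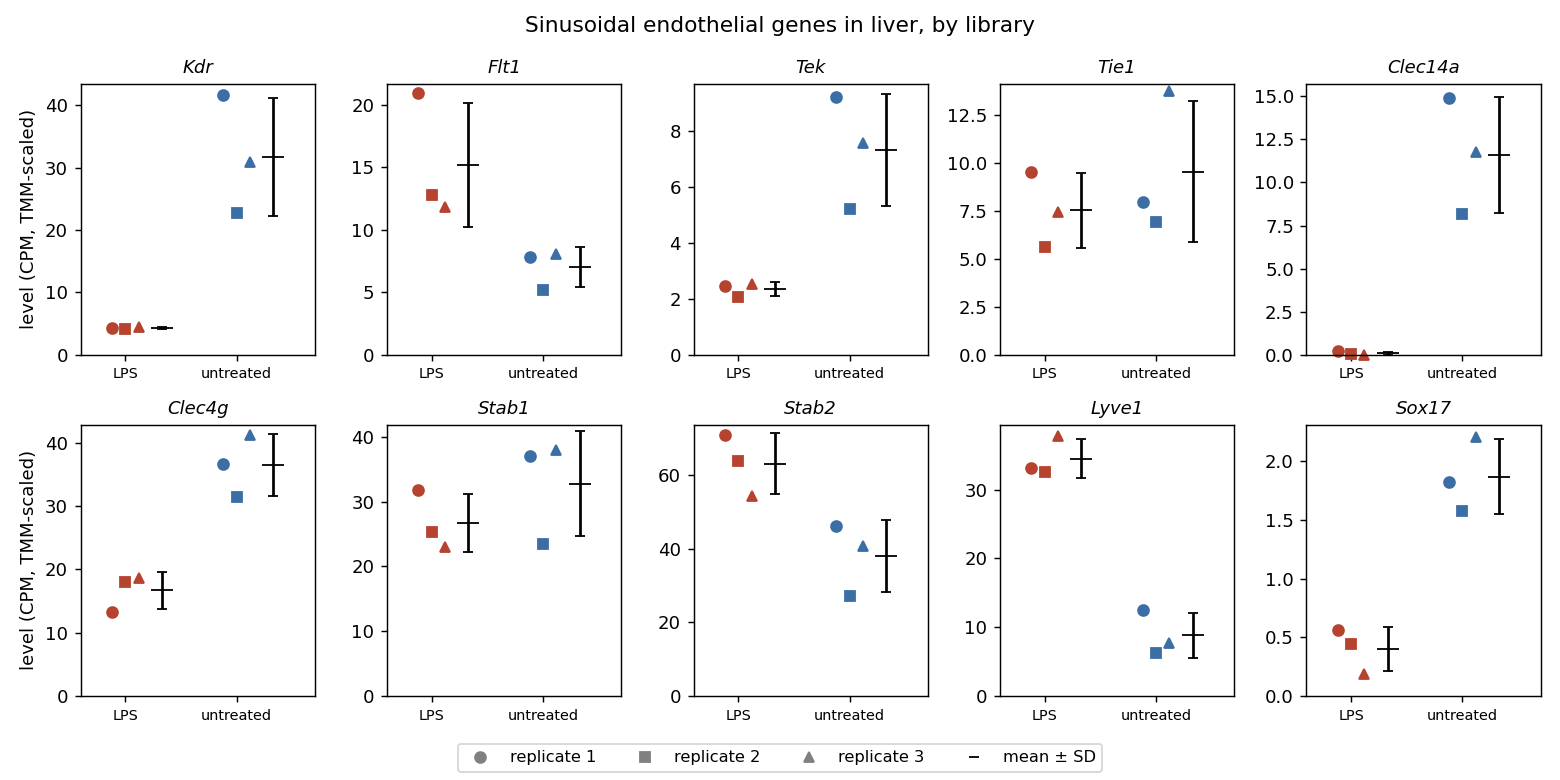
Level of each gene in CPM (vertical axis, from 0) in the 3 LPS and 3 untreated liver libraries. Symbols are replicates and bars are mean ± SD. Kdr lies between 4.11 and 4.37 CPM in the LPS livers, below 22.7 CPM, the lowest untreated value, while Lyve1 lies between 32.6 and 37.8 CPM, above 12.5 CPM, the highest untreated value.

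The VEGF receptors Kdr and Flt1 differed in opposite directions. Kdr (ENSMUSG00000062960, chr5:75932827-75978458, minus strand, GRCm38) had 4.33, 4.11 and 4.37 CPM in LPS livers, against 41.6, 22.7 and 30.9 CPM in untreated livers. The LPS values lay within a narrow band and all untreated values were far above it, a log2 fold change of -2.89 (SE 0.25) or 7.43-fold lower. Flt1 (ENSMUSG00000029648, chr5:147561604-147726011, minus strand) had 20.9, 12.8 and 11.8 CPM in LPS livers, against 7.78, 5.14 and 8.08 CPM in untreated livers. The groups did not overlap, LPS replicate 1 was the highest, and the log2 fold change was 1.12 (SE 0.28), or 0.83 at the lowest with 1 library left out. Counts per gene join the membrane-bound and soluble forms of Flt1.

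The quotient of the Kdr and Flt1 counts within a library does not depend on how libraries are scaled. It was 0.207, 0.320 and 0.369 in LPS livers and 5.34, 4.41 and 3.82 in untreated livers, 15.5-fold lower after LPS as a ratio of geometric means. Per kb of transcript, the mean quotient was 0.348 in LPS livers and 5.27 in untreated livers, so that Kdr was the more abundant of the pair in untreated liver and Flt1 after LPS.

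**Figure D2:**
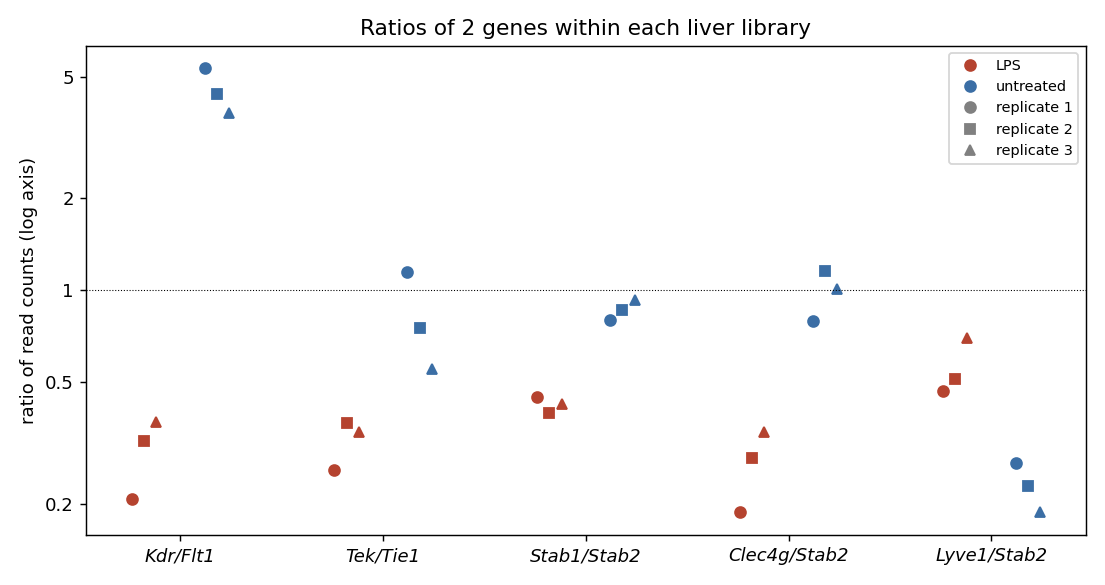
Quotient of the read counts of 2 genes within each of the 6 liver libraries (logarithmic vertical axis), LPS left of untreated for each pair. The groups do not overlap for any of the 5 pairs, and Kdr over Flt1 differs most, with means of 0.299 in LPS livers and 4.53 in untreated livers.

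Of the angiopoietin receptors, Tek (ENSMUSG00000006386, chr4:94739289-94874976, plus strand) had 2.45, 2.05 and 2.53 CPM in LPS livers and 9.19, 5.19 and 7.55 CPM in untreated livers. The groups did not overlap, and the log2 fold change was -1.64 (SE 0.28). Tie1 (ENSMUSG00000033191, chr4:118471191-118490061, minus strand) had 9.53, 5.60 and 7.40 CPM in LPS livers and 7.96, 6.91 and 13.7 CPM in untreated livers. These values overlapped, with a log2 fold change of -0.34 (SE 0.31) that was 0.013 without untreated replicate 3. The quotient of Tek over Tie1 counts was 0.257, 0.366 and 0.342 in LPS livers and 1.15, 0.752 and 0.552 in untreated livers, without overlap.

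Clec14a, an endothelial C-type lectin that binds the matrix protein multimerin 2, had the largest difference of the 10. Clec14a (ENSMUSG00000045930, chr12:58264720-58269290, minus strand) is a gene of 1 exon, with 3, 1 and 0 counts in LPS livers against 327, 176 and 272 counts in untreated livers. These are 0.188, 0.0555 and 0 CPM after LPS, the 0 allowing up to 0.190 CPM (3 counts), and 14.9, 8.16 and 11.8 CPM in untreated livers. The untreated level was 145 times the LPS level from the summed counts (4 against 775; exact binomial 95% interval 56.3 to 532, covering counting error only). The fitted log2 fold change was -7.06 (SE 0.57), and -8.33 without LPS replicate 1.

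Clec4g (LSECtin), a lectin of sinusoidal endothelium that binds glycans and T cells, was lower by much less. Clec4g (ENSMUSG00000074491, chr8:3707064-3720651, minus strand) had 13.3, 18.0 and 18.7 CPM in LPS livers, against 36.7, 31.4 and 41.3 CPM in untreated livers. The groups did not overlap, LPS replicate 1 was the lowest, and the log2 fold change was -1.13 (SE 0.20).

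The receptors that bind hyaluronan or other extracellular ligands were not lower as a group. Lyve1 (ENSMUSG00000030787, chr7:110850607-110863239, minus strand) had 33.1, 32.6 and 37.8 CPM in LPS livers, against 12.5, 6.21 and 7.69 CPM in untreated livers. Every LPS value was more than any untreated value, with a log2 fold change of 1.97 (SE 0.27). Stab2 (ENSMUSG00000035459, chr10:86841198-87008025, minus strand), the main hyaluronan scavenger of these cells, had 71.0, 63.9 and 54.4 CPM in LPS livers and 46.2, 27.1 and 40.8 CPM in untreated livers. The groups did not overlap, and the log2 fold change was 0.73 (SE 0.23). Stab1 (ENSMUSG00000042286, chr14:31139013-31168641, minus strand), a scavenger receptor that macrophages also make, had 31.7, 25.3 and 23.0 CPM in LPS livers and 37.0, 23.4 and 37.9 CPM in untreated livers. Its groups overlapped, with a log2 fold change of -0.30 (SE 0.23).

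Within libraries, Stab1 over Stab2 counts were 0.446, 0.396 and 0.423 in LPS livers and 0.799, 0.862 and 0.928 in untreated livers. Lyve1 over Stab2 counts averaged 0.558 ± 0.122 in LPS livers and 0.229 ± 0.0412 in untreated livers (SD, n = 3 each), and Clec4g over Stab2 counts averaged 0.271 ± 0.0787 in LPS livers and 0.988 ± 0.183 in untreated livers. The 3 libraries of a group lay on the same side of the other group in each of these quotients, whatever the scaling, so the 10 genes differed unequally.

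Sox17 (ENSMUSG00000025902, chr1:4490931-4497354, minus strand), the transcription factor among the 10, had 9, 8 and 3 counts in LPS livers and 40, 34 and 51 counts in untreated livers. These are 0.564, 0.444 and 0.190 CPM in LPS livers and 1.82, 1.58 and 2.21 CPM in untreated livers, without overlap and with a log2 fold change of -2.21 (SE 0.44). It had the fewest counts of the 10 in untreated liver.

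**Figure D3:**
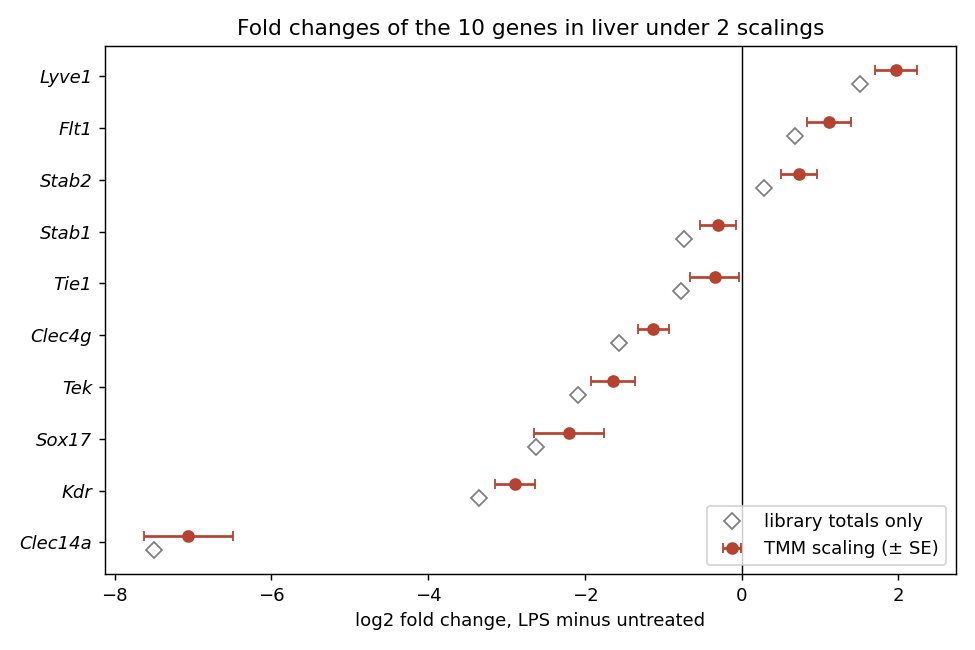
Log2 fold change of each gene in liver, LPS minus untreated (horizontal axis), with TMM scaling (filled, ± SE) and with library totals only (open). No gene changes sign between the scalings, and every open point lies left of its filled point, Lyve1 at 1.51 against 1.97 and Kdr at -3.35 against -2.89.

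The scaling bears on which genes are called: with library totals only, the median over all genes was -0.49 on the log2 scale in place of -0.06, and each of the 10 genes stood lower than with TMM. By that scaling 1 gene was called higher (Lyve1) and 6 lower, Stab1 being lower (log2 fold change -0.74), while Flt1 (0.68) and Stab2 (0.28) were no longer past the threshold. Stab2 was also not past it without LPS replicate 1, LPS replicate 2 or untreated replicate 2 (0.65, 0.73 and 0.51). All liver directions given here are therefore relative to the TMM scaling.

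Levels of different genes were compared per kb of the coding transcript with the longest coding sequence (CPM per kb). In LPS livers the order was Clec4g (13.4 ± 2.36), Lyve1 (11.9 ± 0.992), Stab2 (7.67 ± 1.01), Stab1 (3.33 ± 0.564), Flt1 (2.20 ± 0.724), Tie1 (1.84 ± 0.481), Kdr (0.721 ± 0.0236), Tek (0.504 ± 0.0553), Sox17 (0.128 ± 0.0611) and Clec14a (0.0178 ± 0.0211; SD, n = 3). The ranges of neighbours overlapped after LPS for Clec4g with Lyve1, Stab1 with Flt1 and Flt1 with Tie1. In untreated livers the order was Clec4g (29.4 ± 3.99), Kdr (5.36 ± 1.6), Stab2 (4.62 ± 1.20), Stab1 (4.10 ± 1.02), Lyve1 (3.04 ± 1.14), Clec14a (2.54 ± 0.738), Tie1 (2.33 ± 0.893), Tek (1.57 ± 0.432), Flt1 (1.02 ± 0.235) and Sox17 (0.598 ± 0.102). There, only Clec4g above Kdr and Flt1 above Sox17 were separated from the next gene by more than the range of the libraries. Kdr stood at rank 2 in untreated liver and at rank 7 after LPS, and Lyve1 at rank 5 in untreated liver and at rank 2 after LPS.

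The untreated libraries also differed among themselves. Untreated replicate 2 was the lowest of its group for all 10 genes, and the summed level of 24 further sinusoidal genes was lowest there too (314 CPM, against 469 and 489 CPM in replicates 1 and 3). Its hepatocyte markers summed to 115000 CPM, against 75300 and 102000 CPM. Among LPS libraries, replicate 1 was the highest for 6 of the 10 genes (Flt1, Tie1, Clec14a, Stab1, Stab2 and Sox17). Its Kupffer cell markers summed to 135 CPM, against 389 and 311 CPM in LPS replicates 2 and 3, and its bile duct markers to 43.6 CPM, against 33.9 and 30.6 CPM, with Krt19 highest there (15.5 CPM against 1.22 and 1.84 CPM) and Sox9 lowest (20.9 CPM against 28.0 and 22.5 CPM). Its large vessel markers summed to 40.5 CPM, against 46.2 and 41.8 CPM, with Cd34 highest there (3.51 CPM against 0.277 and 0.253 CPM) and Plvap lowest (28.5 CPM against 43.4 and 36.3 CPM). The part of these differences in the results was not tested, and the 10 genes are given with each library left out where that changes a call or the size by over 1.5 times.

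Features that did not enter the choice of the genes varied among them. The pentamer ATTTA, the core of AU-rich elements that speed mRNA decay, was counted in the 3′ untranslated region of the same transcripts. Tek had 3.19 per kb (3 in 941 bases), Tie1 3.03 (1 in 330 bases), Sox17 2.55, Lyve1 1.92, Flt1 1.91, Clec14a 1.83 and Kdr 1.25, while Clec4g, Stab1 and Stab2 had 0. The median over 12025 tested liver genes was 1.25 per kb and 33.3% had none. Genes that stood higher and genes that stood lower after LPS were found on both sides of that median: Lyve1 and Flt1 above it and Stab2 at 0, Tek, Sox17 and Clec14a above it and Clec4g at 0. Stab1 and Stab2 are built alike, with 69 exons each and 7713 and 7677 coding bases, whereas Kdr and Flt1 have 30 exons each, and Tek and Tie1 23 each.

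Of 24 other genes of sinusoidal endothelium 23 were tested, of which 12 fell, 3 rose and 8 did not pass the threshold, where 22.1% of all tested genes fell and 23.3% rose. Their median log2 fold change was -0.78, beside -0.06 over all tested genes, and with library totals only 17 fell and 3 rose. This list and the lists below were drawn up with earlier results of these data known. Their counts and medians are therefore a description and carry no test, whether near the shares over all tested genes or not. The genes named next were picked among those called for the size of their change, so their p-values are those of selected genes. Gpr182, an atypical chemokine receptor of sinusoidal cells, fell to 2.95 ± 0.445 CPM in LPS livers, against 20.2 ± 4.31 CPM in untreated livers (SD, n = 3 each; edgeR adjusted p = 5.01e-05). Wnt2, a ligand these cells release to hepatocytes, was 0.552 ± 0.192 CPM in LPS livers and 2.05 ± 0.455 CPM in untreated livers (edgeR adjusted p = 0.00615). The endocytic adaptor Dab2 and the scavenger receptor Msr1 rose, Dab2 to 31.3 ± 4.69 CPM against 8.42 ± 2.47 CPM and Msr1 to 29.4 ± 1.65 CPM against 8.83 ± 2.11 CPM (edgeR adjusted p = 0.000468 and 0.000369). Macrophages express Dab2 and Msr1 too: in the macrophage libraries of this series Msr1 had at least 16595 counts and Dab2 at least 5264. Of the genes that fell, Fcgr2b had at least 12722 counts there and Maf at least 476, whereas Gpr182 had at most 8.

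Of 22 genes on a general endothelial list, all tested, 5 rose, 6 fell and 11 did not pass the threshold, with a median log2 fold change of -0.26. Both counts are near the shares over all tested genes, of which 23.3% rose and 22.1% fell, and so are no result about this list. With library totals only, 3 rose and 10 fell. Rasip1, a regulator of endothelial junctions and lumen formation, rose 18.0-fold, to 59.2, 22.8 and 23.9 CPM in LPS livers (edgeR adjusted p = 0.000185). It shares 654 exonic bases with Izumo1 on the same strand and overlaps antisense genes, so its reads could be split or shared. Egfl7, a secreted endothelial protein, fell 5.01-fold (edgeR adjusted p = 0.000285), and it too overlaps other genes. Ramp2, the partner of the adrenomedullin receptor, fell 4.94-fold and shares 1103 exonic bases with Vps25 on the same strand (edgeR adjusted p = 0.00092). Cdh5 and Pecam1, the junction proteins most used to mark endothelium, were chosen after their values were seen. Cdh5 had 38.8, 32.2 and 34.7 CPM in LPS livers and 18.0, 13.2 and 20.4 CPM in untreated livers (edgeR adjusted p = 0.00378), whereas Pecam1 had 11.7, 6.44 and 5.57 CPM in LPS livers and 14.9, 8.57 and 17.1 CPM in untreated livers (edgeR adjusted p = 0.0968). Pecam1 was called lower without LPS replicate 1 or untreated replicate 2 (edgeR adjusted p = 0.0293 and 0.0398) and with library totals (0.0259), by which Cdh5 was not called (0.0562). None of the 3 large vessel markers (Vwf, Cd34 and Plvap), which are also among the 22 genes, was called. Their sum was 40.5 to 46.2 CPM in LPS livers and 46.6 to 56.3 CPM in untreated livers. Most of it was Plvap, with 28.5 to 43.4 CPM in LPS livers and 38.9 to 52.3 CPM in untreated livers.

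**Figure D4:**
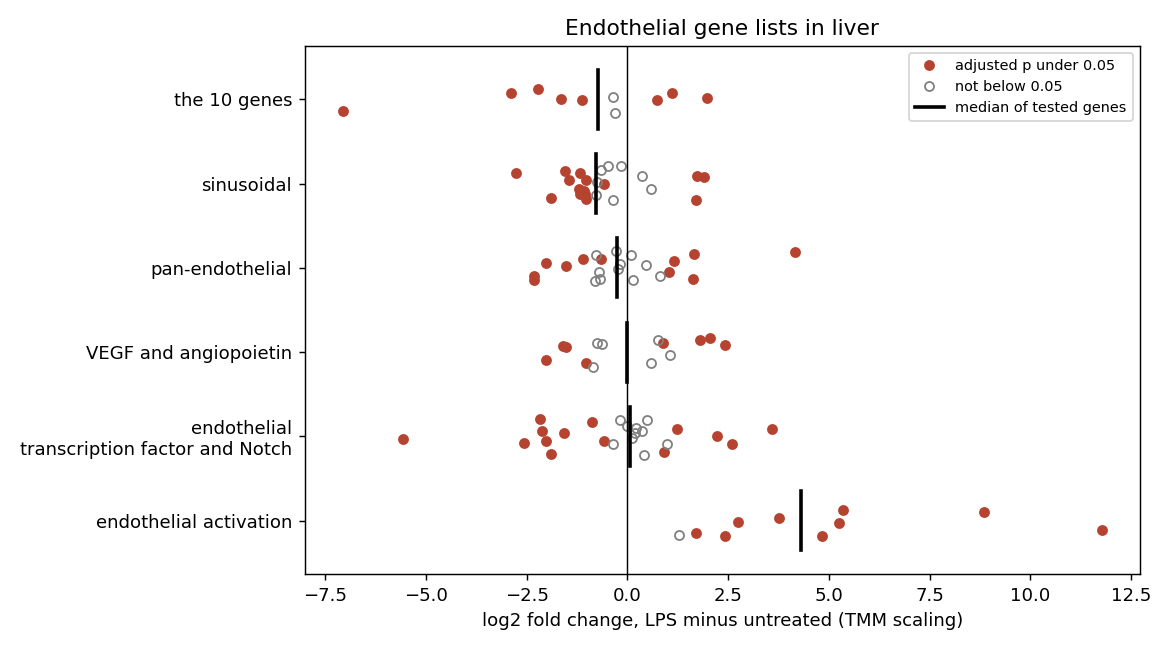
Log2 fold change in liver, LPS minus untreated, of every tested gene of 6 endothelial lists (points; filled where the edgeR adjusted p was under 0.05), with the median of each list as a bar. The medians are -0.74 for the 10 genes, -0.78 for other sinusoidal genes, -0.26 for the general endothelial list and 4.30 for activation genes.

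Of 16 VEGF and angiopoietin genes, the ligands and partners of the receptors, 14 were tested, with 4 higher, 4 lower and 6 not called (1 higher and 6 lower with library totals). These counts too are near the 23.3% higher and 22.1% lower of all tested genes. Angpt2, an angiopoietin that often opposes TIE2 signalling, rose to 2.76, 2.05 and 1.84 CPM in LPS livers, against 0.728, 0.0927 and 0.391 CPM in untreated livers (5.40-fold, edgeR adjusted p = 0.00892), or 8.81-fold without untreated replicate 1. Angpt1, the activating ligand, was chosen after its value was seen: it was 0.400 ± 0.075 CPM in LPS livers and 1.22 ± 0.655 CPM in untreated livers (edgeR adjusted p = 0.0372). It missed the threshold without any 1 library other than untreated replicate 2 (edgeR adjusted p = 0.0771 to 0.124), and it shares 737 exonic bases with an antisense gene. Ptprb, the phosphatase that removes phosphate from TIE2, fell 4.03-fold, to 10.8 ± 0.643 CPM against 43.7 ± 18.2 CPM (edgeR adjusted p = 0.00105). Sema3a had 2.32, 0.610 and 0.886 CPM in LPS livers and 0.228, 0.185 and 0.478 CPM in untreated livers, 4.17-fold higher (edgeR adjusted p = 0.0277), but 2.49-fold without LPS replicate 1 (edgeR adjusted p = 0.114), and it also missed the threshold without untreated replicate 1 or 2 (edgeR adjusted p = 0.083 and 0.0893). Vegfd was 3.50-fold higher (edgeR adjusted p = 0.0241) and missed the threshold without LPS replicate 1 or 3 or untreated replicate 1 or 3 (edgeR adjusted p = 0.0533 to 0.0898). Vegfa, the main ligand of Kdr and Flt1, was chosen after its value was seen and had 220, 203 and 196 CPM in LPS livers and 98.7, 103 and 132 CPM in untreated livers (edgeR adjusted p = 0.00661, or 0.0708 with library totals).

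Transcription factors and Notch genes of endothelium included 5 that rose, 9 that fell and 10 that did not pass, of 24 tested among 28, where 23.3% of all tested genes rose and 22.1% fell. The SOXF genes did not move together. Sox18 had 0, 3 and 0 counts in the LPS libraries and 60, 52 and 98 counts in the untreated libraries (edgeR adjusted p = 0.000576), so any ratio of the groups rests on the 3 counts of LPS replicate 2 and none is given. Sox7, chosen after its value was seen, rose to 6.52, 6.60 and 5.13 CPM in LPS livers, against 1.41, 1.02 and 1.43 CPM in untreated livers (edgeR adjusted p = 0.000362). Nr2f2 (COUP-TFII), a factor of venous identity, fell 5.94-fold, the Notch ligand Dll1 rose to 33.9 ± 6.59 CPM against 2.81 ± 0.305 CPM, and Ets2 rose 6.09-fold (edgeR adjusted p = 2.29e-05, 8.95e-06 and 2.03e-05). Other cell types also express Nr2f2, Dll1 and Ets2, and the exons of Nr2f2 and Dll1 overlap genes on the opposite strand. Beside these, 9 of 10 activation genes rose and 0 fell, with a median log2 fold change of 4.30. P-selectin (Selp), which captures leukocytes, rose to 56.1 ± 18.9 CPM in LPS livers, against 1.38 ± 0.533 CPM in untreated livers. Procr, the endothelial protein C receptor, rose to 28.6 ± 7.60 CPM against 0.742 ± 0.268 CPM. Sele, an adhesion molecule of activated endothelium, was at least 496-fold higher against a floor of 3 counts over the untreated group. In the macrophage libraries of this series, Procr was 219 to 3110 CPM and Selp 9.45 to 161 CPM, whereas Sele was 0 to 0.743 CPM. Which cells gave the higher liver levels of the activation genes was not tested.

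Markers of other cells in the same libraries were as follows. All 6 neutrophil markers rose, their sum being 214 to 297 CPM in LPS livers and 2.55 to 8.03 CPM in untreated livers. S100a8 was 99.5-fold, Retnlg 76.9-fold and Mmp8 37.2-fold higher, on few untreated counts (1 to 4 per library for Mmp8), and S100a9 was 87.0-fold higher, or 164-fold without untreated replicate 3. None of 8 Kupffer cell markers was called (sum 135 to 389 CPM in LPS livers and 301 to 379 CPM in untreated livers). Of 7 stellate cell and fibroblast markers, Lrat fell to 4.80 ± 1.09 CPM against 19.2 ± 5.56 CPM and 6 were not called (sum 174 to 285 CPM in LPS livers and 234 to 284 CPM in untreated livers). Of 6 hepatocyte markers, Asgr1 rose 1.63-fold and Cps1 fell 2.72-fold, calls lost without LPS replicate 1 or 2 (for Asgr1 also without LPS replicate 3 or untreated replicate 1), and 4 were not called (sum 54000 to 86800 CPM in LPS livers and 75300 to 115000 CPM in untreated livers). Of 4 bile duct markers, Sox9 rose 5.85-fold and 3 were not called. The sum of the 4 was 30.6 to 43.6 CPM in LPS livers and 7.92 to 11.1 CPM in untreated livers. Sox9 alone made up 20.9, 28.0 and 22.5 of the 43.6, 33.9 and 30.6 CPM in LPS livers. Krt19 made up 15.5 CPM in LPS replicate 1, against 1.22 and 1.84 CPM in LPS replicates 2 and 3. Of 6 peritoneal macrophage markers, Itgam rose 4.23-fold, Gata6 rose 3.93-fold and 4 were not called (sum 73.8 to 152 CPM in LPS livers and 92.6 to 124 CPM in untreated livers). Itgam shares 3450 exonic bases with Gm49368 on the same strand. Of 4 lymphatic endothelial markers, 2 were tested and 0 called; their sum, nearly all of it Prox1, which hepatocytes also make, was 69.2 to 105 CPM in LPS livers and 99.2 to 129 CPM in untreated livers. No marker of these lists was at 0 in all 6 liver libraries, and their part in the values of the 10 genes was not tested.

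The genes whose profile over the 6 liver libraries was nearest to that of 3 of the 10 were found by the root mean square distance of centred log2 CPM among 13868 other tested genes. Nearest to Kdr were Zfp955a (distance 0.141), Zfp36l2 (0.157) and Cnst (0.170). Nearest to Stab2 were Ninl (0.0811), Sirt1 (0.0934) and Abr (0.0980), and nearest to Lyve1 were Trim56 (0.0641), Tut4 (0.0977) and Col4a1 (0.160). Their log2 fold changes were -3.03, -2.87 and -3.18 for those near Kdr, 0.57 to 0.70 for those near Stab2 and 1.88 to 2.20 for those near Lyve1.

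Earlier results of these data were known when the genes were chosen. The macrophage libraries gave a comparison that the rule for choosing them did not use, shGm26917 against shNC. Gm26917 itself was not analysed here in these libraries, so its knockdown was not checked and shGm26917 names the label only. Markers of macrophages (Adgre1, Cd68, Csf1r, Itgam, Lyz2 and Gata6) were counted in every library. Most of the endothelial genes were at or near 0: 6 of the 10 had fewer than 10 counts over the 6 libraries together. Clec14a had 0 counts, which allows up to 0.0299 CPM over the 6 libraries, Clec4g and Stab2 had 1 count each, Tie1 had 2, Sox17 had 4 and Tek had 5. Lyve1 had 15 counts in all, 3 in shGm26917 and 12 in shNC libraries.

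Stab1, which macrophages make, was the exception with 9854 counts in all. It had 132, 135 and 84.7 CPM in shGm26917 macrophages, against 58.0, 130 and 35.5 CPM in shNC macrophages. The groups overlapped through shNC replicate 2, and the difference did not pass the threshold (log2 fold change 0.65, SE 0.46, edgeR adjusted p = 0.34). Of 12876 genes tested there, 23.7% were called, 12.6% higher and 11.1% lower, and 45.9% did not overlap between the groups. Without shNC replicate 2 the log2 fold change was 1.31 (edgeR adjusted p = 0.0061), and over the other alternatives the adjusted p was 0.0868 to 0.625. That library differed from the other shNC libraries over all genes, with correlations of log2 CPM of 0.943 and 0.942, against 0.985 between shNC replicates 1 and 3. Of 6 peritoneal macrophage markers, 3 rose and 0 fell, Csf1r being 2500 ± 232 CPM in shGm26917 macrophages and 1010 ± 180 CPM in shNC macrophages (SD, n = 3 each; edgeR adjusted p = 0.00782). The part of these markers in the Stab1 values was not tested.

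Flt1 was the other gene that passed the filter in macrophages, and 1 library carried most of its counts. It had 2, 11 and 10 counts in shGm26917 libraries and 1, 101 and 10 counts in shNC libraries, the 101 again in shNC replicate 2 (log2 fold change -2.57, SE 1.37, edgeR adjusted p = 0.213, and 0.16 on the log2 scale without that replicate). Kdr, which was not tested, had 15, 3 and 2 counts in shGm26917 libraries and 4, 30 and 2 counts in shNC libraries. Of the 2 genes tested, 0 were called by edgeR or by DESeq2, and 0 had an unadjusted p under 0.05 in edgeR.

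**Figure D5:**
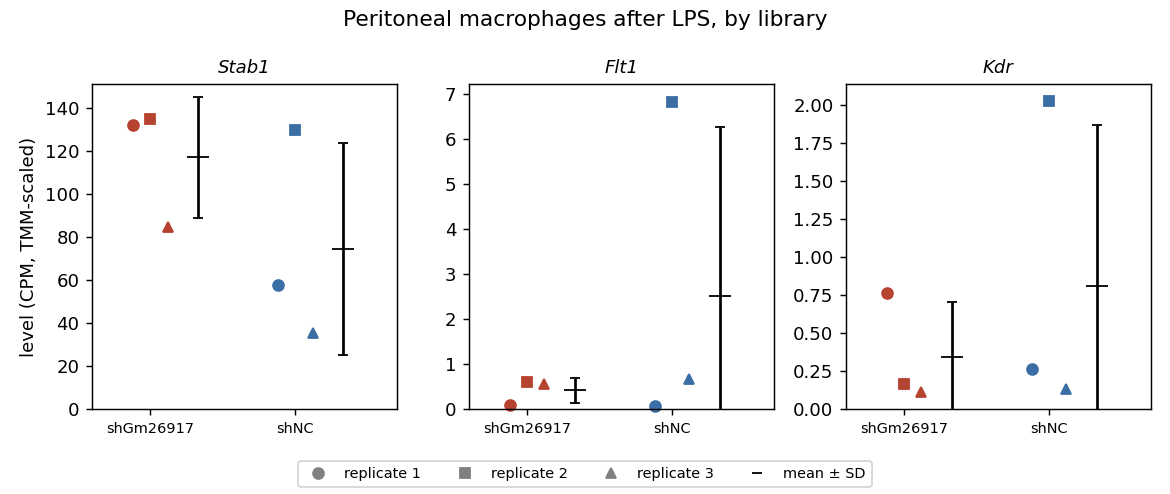
Level in CPM (vertical axis, from 0) of Stab1, Flt1 and Kdr in peritoneal macrophages, shGm26917 left of shNC, with replicates as symbols and mean ± SD as bars, cut off at 0. shNC replicate 2 is the highest of its group for all 3 genes, at 130 CPM for Stab1, 6.82 CPM for Flt1 and 2.03 CPM for Kdr.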

How the data were processed

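The authors deposited 1 table per library of raw read counts per Ensembl gene ID, per the file headers, not normalized. STAR, featureCounts 1.6.3 and mm10 are named in the submitters' processing notes. Parameters, annotation release and strand setting are not stated there. The tables held 49585 IDs for liver and 55401 for macrophages (49022 shared), of which 49326 and 55141 matched a gene name, so each tissue was fitted alone. The macrophage column headers carry the word combined, without saying what was combined.

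Counts were fitted in edgeR 4.0.16 (R 4.3.3) with the group as sole factor, filterByExpr, TMM scaling (factors 0.845 to 0.881 in LPS and 1.07 to 1.27 in untreated livers) and the 2-sided quasi-likelihood F test, Benjamini-Hochberg adjusted over all genes tested in a tissue (threshold 0.05). SE was taken as |log2 fold change| over the root of F. The code was tested on simulated data. GENCODE M21 on GRCm38, which mm10 also is, gave coordinates, transcript lengths and overlaps. No replicates looked like one library deposited again: counts of each pair differed beyond sampling noise (chi-square per degree of freedom at least 22.8).

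From each list, the 4 called genes with the largest absolute log2 fold change were named. Of these, 1 is not reported here. Members and lists were chosen with earlier results of these data known. DESeq2 1.42.0 size factors and Wald test, library totals, other filters, a replicate block and each library left out were the alternatives.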

Additional observations from a re-analysis of the deposited data

How the results depend on the processing

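In liver, 6287 genes were called (3227 higher and 3060 lower), 4865 to 6227 with 1 library left out, and 7248 with library totals (1943 higher and 5305 lower). Of the 10 genes, 8 were called, and 7 or 8 under every alternative. The direction of 9 of them held throughout; Tie1, not called, ranged over -0.56 to 0.013 with 1 library left out, the 0.013 without untreated replicate 3. The VEGF and angiopoietin list had 8 calls, 5 with at least 1 CPM in 3 libraries and 4 to 8 with 1 library left out, 5 without LPS replicate 3 and 4 without untreated replicate 1. The transcription factor and Notch list had 14, and 9 to 14 with 1 library left out, the fewest without LPS replicate 3.

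In macrophages, 3049 genes were called, and 839 to 5236 with 1 library left out (5236 without shNC replicate 2, 839 without shGm26917 replicate 2). With library totals 3135 were higher and 794 lower, in place of 1618 and 1431, the median log2 fold change shifting from -0.00073 to 0.29. Of the 10 genes, 0 to 1 were called with 1 library left out, the 1 being Stab1; Flt1 ranged over -3.15 to 0.16, the 0.16 without shNC replicate 2. The cause of these shifts was not tested. The same alternatives for the named genes of the other lists were chosen after seeing the data.

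Whether replicate numbers pair the samples was not settled. Same-numbered libraries had deviation correlations of 0.118, 0.0498 and -0.0766 in liver and -0.0407, 0.24 and 0.178 in macrophages. LPS replicate 1 and shGm26917 replicates 2 and 3 correlated best with their own number, and the other LPS and shGm26917 libraries did not. With 3 libraries in a group, such correlations cannot decide the question. A replicate block gave 5754 calls in liver and 2594 in macrophages. Counts limit what can be said of Sox17 and Clec14a in LPS livers, and of 8 of the 10 genes in macrophages.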
